A study of Rattus norvegicus with 4 samples.

Results

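The endoplasmic reticulum (ER) folding and stress genes are a list of 60 genes for the import, folding, modification, export and disposal of secreted and membrane proteins and for the response to unfolded protein in the ER. The members were taken by symbol, but with earlier results of these data known. A deposited row with a value on all 4 arrays was matched to 46 of them by its RefSeq accession, with 1 row per gene, and Srpr was matched under its current symbol Srpra. The other 14 (Sdf2l1, Manf, Pdia2, Fkbp2, Ern1, Atf6, Edem1, Srp14, Sec61b, Sec61g, Ssr2, Spcs1, Spcs2 and Lman2) had none and were not analysed here. One-color NimbleGen arrays were hybridized with RNA from the colon of 2 control rats and 2 MSCT rats, 1 array for each animal. All rats were male, and the paper gives them as Sprague Dawley rats. Rats of the MSCT group had colitis induced with 2,4,6-trinitrobenzene sulfonic acid (TNBS), a model of inflammatory bowel disease (IBD), and then received cultured mesenchymal stem cells (MSCs) labeled with green fluorescent protein through the tail vein. The paper compares them with TNBS rats that received no MSCs. In the descriptions of the samples these controls are normal rats, and the design text of the series uses both names. Which of these the control rats were is not settled, so what the TNBS injury adds to a difference cannot be told apart from the transplantation. The labels give no day or age, and the paper places the chips at different days in its Methods and its Results. The p-values measure only the spread between these arrays. The colon was a mixture of cell types, so more cells of a secretory type and more RNA per cell cannot be told apart.

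Proteins that enter the secretory pathway are brought to the ER by the signal recognition particle and its receptor, pass through the Sec61 channel, lose their signal peptide and receive N-linked sugars. Chaperones such as the Hsp70 protein BiP (Hspa5) and enzymes that form disulfide bonds then fold them, and proteins that fail are carried back to the cytosol and degraded. When unfolded protein accumulates, the sensors IRE1 (Ern1), PERK (Eif2ak3) and ATF6 start the unfolded protein response, in which XBP1, ATF6 and ATF4 activate genes for folding, degradation and amino acid supply. In the intestine this response is known above all from goblet cells, Paneth cells and plasma cells, which secrete large amounts of protein.

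Many genes of the response carry an ER stress element in the promoter, which is bound by ATF6 and XBP1, and these sequences are shown because they group the members by a feature that the array values do not use. Promoter windows of RefSeq (assembly GRCr8, 250 bases before to 50 bases after a start site) were matched to 49 of the 60 members and 38 of the 46 measured ones. A gene can have several windows. Only the first window of each member was searched, whereas the shares of all windows count every window. The ER stress element (ERSE, CCAAT and CCACG with 9 bases between them, either strand) was present in 7 of the 49, against 0.0657% of all 33469 windows. The second form, ERSE-II (ATTGG and CCACG with 1 base between them, either strand), was present in 3 of the 49, against 0.0508% of all windows. The unfolded protein response element (UPRE, TGACGTGG, either strand) was in 2 (Hyou1 and Vcp), against 0.595%. None of the 49 held TGATGNAAT, a form of the amino acid response element that ATF4 binds, which was in 1.09% of all windows. Below are stretches around the elements in the 5 of these members with an unadjusted p under 0.05, followed by Calr and Canx, which hold the ERSE with the smallest differences between the groups. Capitals mark the elements, and the ERSE of Creld2 and Calr and both ERSE-II of Hyou1 read on the strand opposite to the one printed.
Hspa5 (chr3:38452948-38453016, plus strand): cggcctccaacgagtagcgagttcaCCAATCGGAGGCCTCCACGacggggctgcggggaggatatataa
Xbp1 (chr14:84604533-84604601, plus strand): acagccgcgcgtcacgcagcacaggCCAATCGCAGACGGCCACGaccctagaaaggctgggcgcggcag
Creld2 (chr7:121789214-121789282, plus strand): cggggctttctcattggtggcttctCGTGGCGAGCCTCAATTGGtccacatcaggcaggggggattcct
Herpud1 (chr19:10614796-10614856, minus strand): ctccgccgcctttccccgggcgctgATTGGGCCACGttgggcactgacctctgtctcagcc
Hyou1 (chr8:53602666-53602829, plus strand): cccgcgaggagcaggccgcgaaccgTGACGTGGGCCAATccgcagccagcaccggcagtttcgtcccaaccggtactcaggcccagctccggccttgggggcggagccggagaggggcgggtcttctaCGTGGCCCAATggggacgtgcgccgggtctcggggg
Calr (chr19:40213117-40213178, plus strand): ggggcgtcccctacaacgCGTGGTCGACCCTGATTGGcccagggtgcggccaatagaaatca
Canx (chr10:35158044-35158107, minus strand): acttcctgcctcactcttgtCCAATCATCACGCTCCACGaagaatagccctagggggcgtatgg
In Hyou1 the first run of capitals holds a UPRE that overlaps an ERSE-II, and the second run is another ERSE-II. Hyou1 has 2 windows in the table, and the first is shown.

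Most ER genes had higher intensity in the MSCT group. Of the 46 measured members, 42 (91.3%) were higher and 4 (Ppib, Atf4, Ssr1 and Kdelr1) were lower, and the median log2 difference was 0.39 (lower and upper quartile 0.27 and 0.67). Over all 18350 measured rows, 48.0% were higher and the median was -0.02. Among the rows with a gene name 55.5% were higher, and among the brightest 25% of rows 53.7%. In 37 members (80.4%) both MSCT arrays lay above both control arrays, which held for 21.3% of all rows, 27.4% of named rows and 28.4% of the brightest 25%. In Ppib and Ssr1 both MSCT arrays lay below both control arrays, and 45.8% of all rows did not overlap in either direction.

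By limma, which fits a linear model to each row and borrows variance from the other rows, 11 of the 46 members had an unadjusted p under 0.05, all higher in the MSCT group. Over all rows 4.80% passed in that direction, 7.17% in the other and 12.0% in either. The share in that direction was 6.75% among rows with a gene name and 4.08% among the brightest 25%. The study screened at p under 0.05 and a difference of more than 2-fold. These limits, set on the unadjusted limma p unless another test is named, are called the screen here. The screen was passed by 4 members, Hyou1, Mzb1, Asns and Fkbp11. Over all rows 2.12% passed it in that direction, 2.51% in the other and 4.63% in either. Upward it was passed by 3.10% of named rows and 1.02% of the brightest 25%. After Benjamini-Hochberg adjustment over all rows no member passed 0.05 by limma (0.00% of all rows did), and the smallest adjusted p among the members was 0.260. The paper names one-way analysis of variance, which for 2 groups equals a plain t-test with equal variances. This t-test gave 16 members with an unadjusted p under 0.05. Of these, 15 were higher, against 4.40% of all rows in that direction, and Ssr1 was lower. By the t-test Hyou1 and Mzb1 passed the screen, as did 1.04% of all rows upward, and no member passed an adjusted p of 0.05. The smallest two-sided p of an exact permutation test is 0.333 at this size. With the trend and robust options of eBayes together, which let the variance depend on intensity and give less weight to outlying variances, Hspa5, Hyou1, Creld2, Pdia6, Xbp1 and Herpud1 passed an adjusted p of 0.05 (0.016 to 0.037), as did 2.11% of all rows. In that fit 6.89% of all rows had an unadjusted p under 0.05 and were higher, and 2.26% passed the screen upward. When the lower 50% of rows by mean intensity were left out, Hyou1, Creld2 and Xbp1 passed it (0.032 to 0.038), as did 2.69% of the rows kept, of which 9.19% had an unadjusted p under 0.05 and were higher and 1.56% passed the screen upward. Over all alternatives the adjusted p of these 6 genes ran from 0.016 to 0.771. The share of all rows is not given for fits with 1 array left out, so counts from them are not read as a trait of the members. In those fits the count of members with an unadjusted p under 0.05 depended on the array left out. Only 4 members, Hyou1, Creld2, Mzb1 and Xbp1, kept it with any 1 array left out. Hyou1 and Mzb1 also passed the screen each time.

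**Figure D1:**
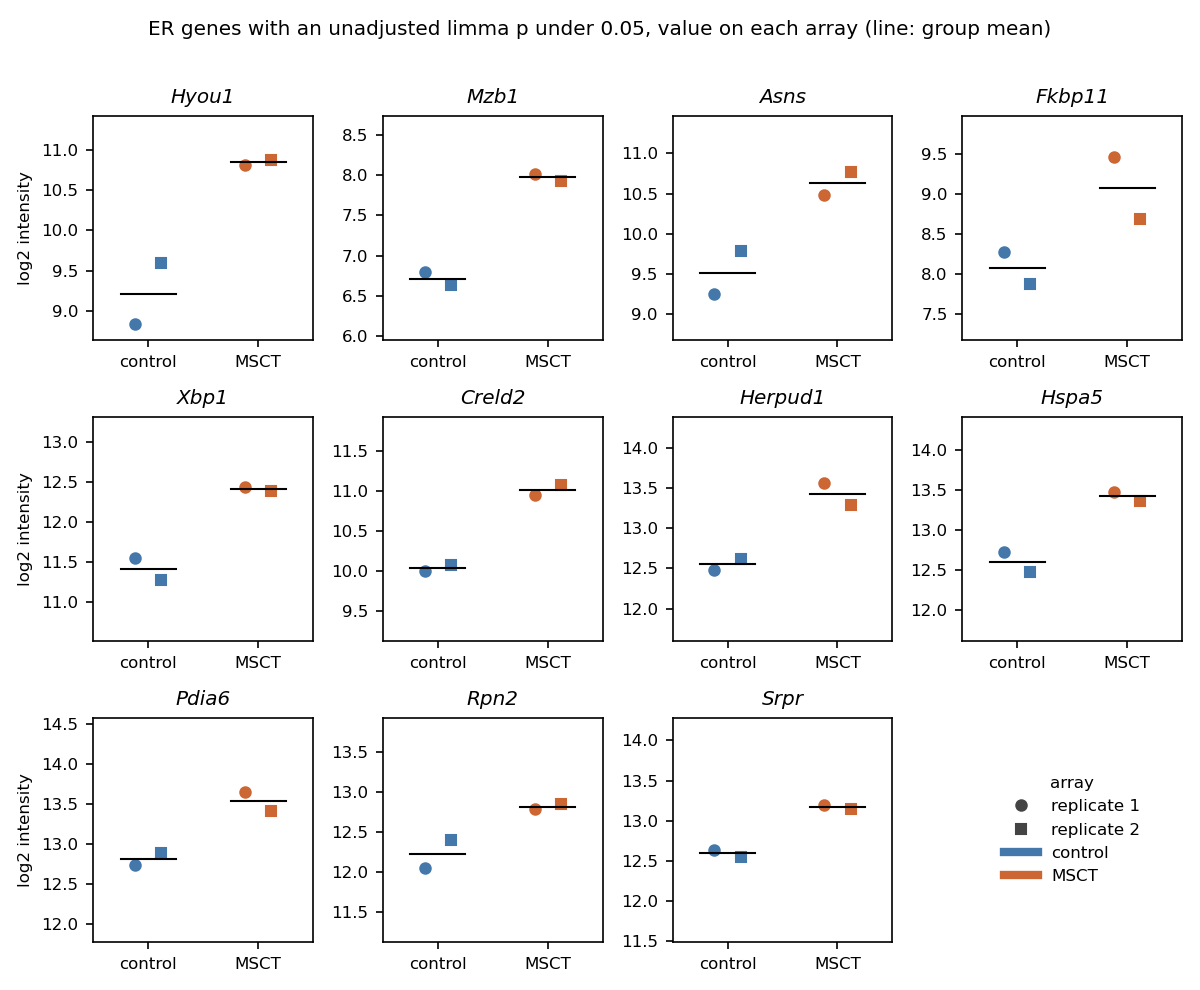
Log2 intensity (vertical axis, each panel spanning the same number of log2 units) on each of the 4 arrays for the 11 members with an unadjusted limma p under 0.05; circles and squares are replicates 1 and 2, and lines are group means. In all 11 panels both MSCT arrays lie above both control arrays, and the control arrays lie farthest apart in Hyou1 (8.83 and 9.59).

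The chaperones and co-chaperones had the highest share of members past the threshold. All 10 that were measured were higher on both MSCT arrays than on both control arrays, with a median log2 difference of 0.76, and 4 had an unadjusted p under 0.05. Hyou1 encodes a large Hsp70-related protein that serves as a nucleotide exchange factor of BiP. Its log2 intensity was 8.83 and 9.59 in control rats (replicates 1 and 2) and 10.82 and 10.88 in MSCT rats. The difference of 1.64 (standard error 0.31; limma adjusted p = 0.282), or 3.13-fold, was the largest of the 46. It was 1.26 without control replicate 1 and 2.02 without control replicate 2.

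Mzb1 encodes a co-chaperone of Hsp90b1 that is found mainly in B cells and plasma cells. Its values were 6.79 and 6.64 in control rats and 8.02 and 7.93 in MSCT rats, so the replicates lay closer than the groups. The difference was 1.26 (standard error 0.19; limma adjusted p = 0.260), or 2.40-fold. This row was dim, in the lower 25% of rows by mean intensity, and was the only member there. Creld2, a secreted ER protein induced by unfolded protein, had 10.00 and 10.07 in control rats and 10.95 and 11.08 in MSCT rats. The difference of 0.98 (standard error 0.19; limma adjusted p = 0.285) lay just under the 2-fold limit of the screen. Hspa5, whose product BiP is the main Hsp70 chaperone of the ER and holds the stress sensors inactive, had 12.73 and 12.48 against 13.48 and 13.36. The difference was 0.82 (standard error 0.20; limma adjusted p = 0.324), or 1.76-fold. Without MSCT replicate 1 Hspa5 no longer had an unadjusted p under 0.05, with a difference of 0.76.

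The other chaperones had no unadjusted p under 0.05 by limma. Dnajb9 and Dnajb11, co-chaperones that bring unfolded protein to BiP, differed by 0.89 (standard error 0.38) and 0.69 (standard error 0.40), and their control arrays lay apart, at 9.25 and 9.99 and at 10.82 and 11.89. Without control replicate 1 the differences were 0.52 and 0.16, and without control replicate 2 they were 1.26 and 1.23, both then past the screen, as Dnajb9 also was without MSCT replicate 1 (1.21). Hsp90b1, the Hsp90 protein of the ER, differed by 0.46 (standard error 0.19), Dnajc3, an inhibitor of eIF2α kinases and co-chaperone of BiP, by 0.38 (standard error 0.20), and Calr and Canx, which bind glycoproteins during folding, by 0.37 (standard error 0.18) and 0.26 (standard error 0.20).

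**Figure D2:**
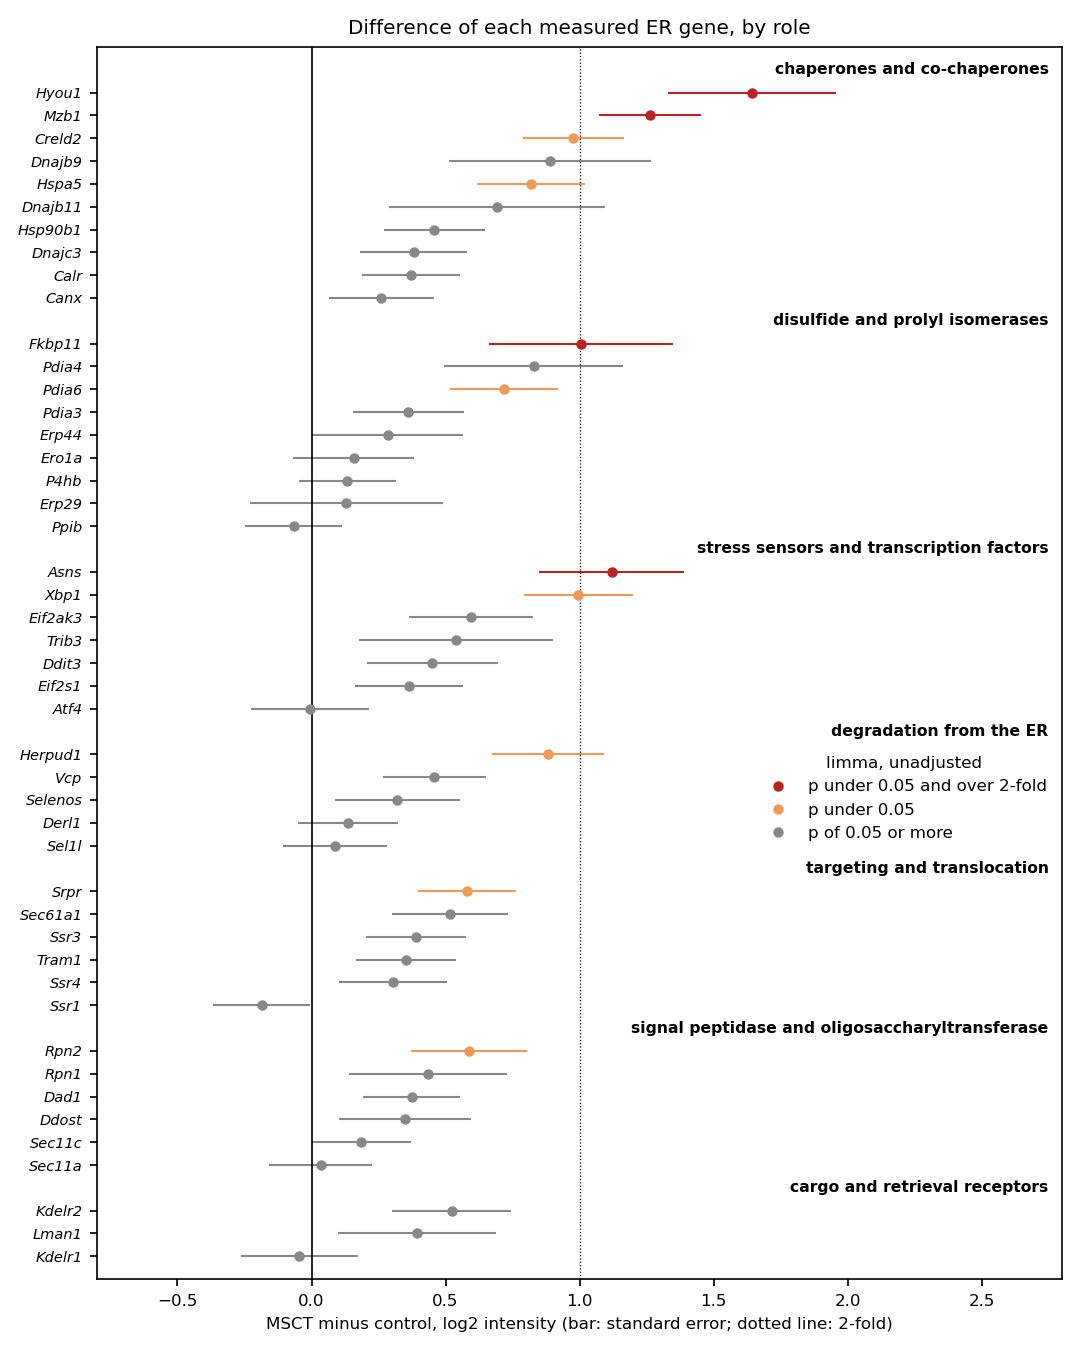
Difference of each of the 46 measured ER genes between the groups (horizontal axis, MSCT minus control, log2 intensity) with its limma standard error, grouped by role; the dotted line marks 2-fold, red is past the screen and orange is an unadjusted p under 0.05 alone. The chaperones all lie above 0, whereas the isomerases run from Ppib (-0.07) to Fkbp11 (1.01).

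The enzymes of oxidative folding and proline isomerization differed among themselves. Of 9 measured, 8 were higher, with a median of 0.28, and in 5 both MSCT arrays lay above both control arrays. Fkbp11, a membrane-anchored prolyl isomerase of secretory cells, had 8.27 and 7.88 in control rats and 9.47 and 8.70 in MSCT rats. The groups did not overlap, but both lay wide apart within. The difference was 1.01 (standard error 0.34; limma adjusted p = 0.389), only just over 2-fold, and it was 0.62 without MSCT replicate 1 and 1.39 without MSCT replicate 2. With 3 of the 4 arrays left out in turn (both control replicates and MSCT replicate 1) Fkbp11 lost its unadjusted p under 0.05.

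Pdia6, a protein disulfide isomerase that also attenuates the sensors, had 12.74 and 12.88 in control rats and 13.65 and 13.41 in MSCT rats. It differed by 0.72 (standard error 0.20; limma adjusted p = 0.338), or 1.64-fold, and kept an unadjusted p under 0.05 only when control replicate 2 was the array left out. Pdia4, a related isomerase, differed by 0.83 (standard error 0.33) and had control arrays at 10.31 and 11.15. It differed by 0.41 without control replicate 1 and by 1.25 without control replicate 2, past the screen in the latter fit. The isomerases P4hb and Pdia3 differed by 0.13 (standard error 0.18) and 0.36 (standard error 0.21). Ero1a, the oxidase that feeds the disulfide isomerases, and Erp29 and Erp44, folding and retention factors of the same family, differed by 0.13 to 0.28, and their groups overlapped. Ppib, the cyclophilin of the ER, was at 13.60 in each control rat, and 13.51 and 13.56 were measured after MSCT, a difference of -0.07 (standard error 0.18).

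Of the 7 measured stress sensors and transcription factors 6 were higher, with a median of 0.54, and Xbp1 and Asns had an unadjusted p under 0.05. Xbp1, the transcription factor that IRE1 activates by splicing its mRNA, had 11.55 and 11.28 in control rats and 12.43 and 12.39 in MSCT rats. The difference was 1.00 (standard error 0.20; limma adjusted p = 0.289), or 1.99-fold. The array gives 1 value for Xbp1 and does not separate spliced from unspliced mRNA. Ern1, which encodes IRE1, and Atf6 had no row, so the mRNA of these sensors was not analysed here. Eif2ak3, which encodes PERK, had 10.63 and 11.06 against 11.41 and 11.47, a difference of 0.59 (standard error 0.23; limma adjusted p = 0.431), with no unadjusted p under 0.05. It had one without control replicate 2 (difference 0.81), with equal array medians, with the lower 25% or 50% of rows left out and with the trend and robust options of eBayes. Eif2s1, the eIF2α subunit that PERK phosphorylates, differed by 0.36 (standard error 0.20).

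Atf4, whose protein is made when eIF2α is phosphorylated, was at 14.25 and 13.87 in control rats and at 14.07 and 14.04 in MSCT rats, so that the MSCT values lay between the control values. The difference was -0.0043 (standard error 0.22; limma adjusted p = 0.996), and ATF4 protein, which is set mainly by translation, was not measured. Of the ATF4 target genes in the list, Asns, the enzyme that makes asparagine, had 9.24 and 9.78 in control rats and 10.49 and 10.77 in MSCT rats. It differed by 1.12 (standard error 0.27; limma adjusted p = 0.320), or 2.17-fold, and by 0.85 without control replicate 1 and 1.39 without control replicate 2. Without MSCT replicate 2 it was 0.98 and no longer had an unadjusted p under 0.05. Ddit3, the factor CHOP of prolonged stress, had 9.74 and 9.29 in control rats and 9.86 and 10.07 in MSCT rats. The groups did not overlap, but the difference of 0.45 (standard error 0.24; limma adjusted p = 0.528) had no unadjusted p under 0.05. Trib3, a target of ATF4 and CHOP, was at 9.61 on MSCT replicate 1 and at 8.68 on MSCT replicate 2, the latter close to the control arrays (8.62 and 8.60), so its difference of 0.54 (standard error 0.36) was 0.071 without MSCT replicate 1 and 1.01, past the screen, without MSCT replicate 2.

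In the degradation group all 5 measured members were higher, with a median of 0.32, and 1 had an unadjusted p under 0.05. Herpud1, a membrane protein of the ubiquitin ligase complex that is itself induced by unfolded protein, had 12.48 and 12.62 in control rats and 13.57 and 13.29 in MSCT rats. It differed by 0.88 (standard error 0.21; limma adjusted p = 0.312), or 1.84-fold, and lost its unadjusted p under 0.05 without MSCT replicate 1 (difference 0.74). The other members of the same route differed by less: Vcp, the ATPase that pulls proteins out of the membrane, by 0.46 (standard error 0.19), Selenos, which recruits it, by 0.32 (standard error 0.23), Derl1, a part of the exit channel, by 0.14 (standard error 0.19), and Sel1l, the scaffold of the ligase, by 0.09 (standard error 0.19). Only in Sel1l did the groups overlap.

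Genes for entry into the ER and for N-glycosylation were mostly higher. In targeting and translocation 5 of 6 were higher (median 0.37), and in the signal peptidase and oligosaccharyltransferase 6 of 6 were (median 0.36), each group with 1 member at an unadjusted p under 0.05. Srpr, the receptor of the signal recognition particle, had 12.64 and 12.54 in control rats and 13.20 and 13.14 in MSCT rats. Its difference of 0.58 (standard error 0.18; limma adjusted p = 0.365) was large against the spread of the replicates, yet the unadjusted p was over 0.05 whenever an array was left out. Rpn2, a subunit of the oligosaccharyltransferase, had 12.05 and 12.41 against 12.79 and 12.85, a difference of 0.59 (standard error 0.22; limma adjusted p = 0.413), and kept an unadjusted p under 0.05 only when control replicate 2 was left out. Its partner subunits Ddost, Dad1 and Rpn1 differed by 0.35, 0.37 and 0.43. Without control replicate 1 Ddost and Rpn1 differed by 0.098 and 0.087, and without control replicate 2 by 0.60 and 0.78, where Rpn1 had an unadjusted p under 0.05. The catalytic subunits of the signal peptidase, Sec11a and Sec11c, differed by 0.03 and 0.19. Sec61a1, the pore of the translocation channel, differed by 0.52 (standard error 0.22; 0.68 without control replicate 2, with an unadjusted p under 0.05), and Tram1, Ssr3 and Ssr4, which assist the channel, by 0.31 to 0.39. Ssr1, of the same complex as Ssr3 and Ssr4, was lower, at 11.72 and 11.66 in control rats and 11.50 on both MSCT arrays (difference -0.19, standard error 0.18).

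No cargo or retrieval receptor had an unadjusted p under 0.05 by limma with default settings on all rows and arrays. Kdelr2, a receptor that returns escaped ER proteins from the Golgi, had 12.72 and 13.11 in control rats and 13.43 and 13.45 in MSCT rats, a difference of 0.52 (standard error 0.22; limma adjusted p = 0.459). Without control replicate 2 it was 0.72, and without control replicate 1 it was 0.33. Kdelr2 had an unadjusted p under 0.05 with the lower 25% or 50% of rows left out and with the trend and robust options of eBayes. It had none after quantile normalization, with equal array medians or by the plain t-test. Its paralog Kdelr1 differed by -0.05 (standard error 0.22), with overlapping groups, and how far the probes of the paralogs share signal was not tested. Lman1, a cargo receptor for glycoproteins, differed by 0.39 (standard error 0.30), by 0.046 without control replicate 1 and by 0.74 without control replicate 2, with an unadjusted p under 0.05 in the latter fit.

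Control replicate 1 was the lowest of the 4 arrays in 28 of the 46 members, against 29.2% of all rows. Control replicate 2 was the lowest in 15, against 22.0% of all rows. Most members were higher in the MSCT group, so their lowest array was mostly a control, and these counts partly restate that difference. The control arrays differed by more than 0.5 log2 units in 10 members, and control replicate 2 was higher in 9 of them (Hyou1, Dnajb9, Dnajb11, Pdia4, Erp29, Asns, Rpn1, Ddost and Lman1). The MSCT arrays were that far apart in 3 members. The shares of all rows with such gaps are not given here. Between single arrays the median difference over the members was 0.55 and 0.43 for MSCT replicates 1 and 2 against control replicate 1, and 0.35 and 0.34 against control replicate 2. Over all rows the same medians lay between -0.05 and 0.01. The control arrays themselves differed by a median of 0.08 over the members and the MSCT arrays by 0.01.

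**Figure D3:**
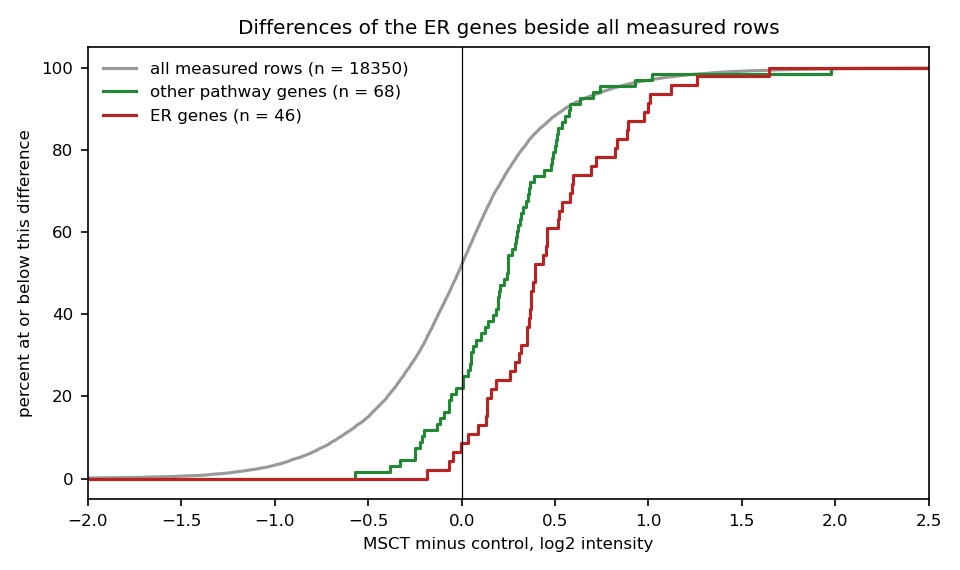
Percent of rows (vertical axis) at or below a given difference between the groups (horizontal axis, MSCT minus control, log2 intensity) for the 46 measured ER genes, 68 other genes of the pathway and all 18350 measured rows. The curve of the ER genes lies to the right of the others around its median of 0.39, beside 0.25 for the other pathway genes and -0.02 for all rows, and it meets the others among the largest differences.

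Members with an ER stress element were compared by their counts. All 10 measured members with ERSE or ERSE-II were higher on both MSCT arrays, with a median difference of 0.76, and 5 of them (Hspa5, Creld2, Xbp1, Hyou1 and Herpud1) had an unadjusted p under 0.05. Of the 28 measured members with neither element in their first window, 24 were higher, with a median of 0.37. Among these 28, 4 (Fkbp11, Asns, Srpr and Rpn2) had an unadjusted p under 0.05. Further windows of the members were not searched. The ranges overlapped, from 0.26 to 1.64 with an element and from -0.19 to 1.12 without, and the 7 members with ERSE had a median of 0.46. Outside the list, 10 named genes with ERSE or ERSE-II in any of their windows, a wider rule than for the members, were measured. Of these 10, 6 were higher, with a median of 0.09. None of these 10 had an unadjusted p under 0.05 upward, and 1 had it downward and passed the screen (-1.16). The list was drawn up around this response, so its members are not a random draw of genes with the element, and binding to these windows was not measured.

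**Figure D4:**
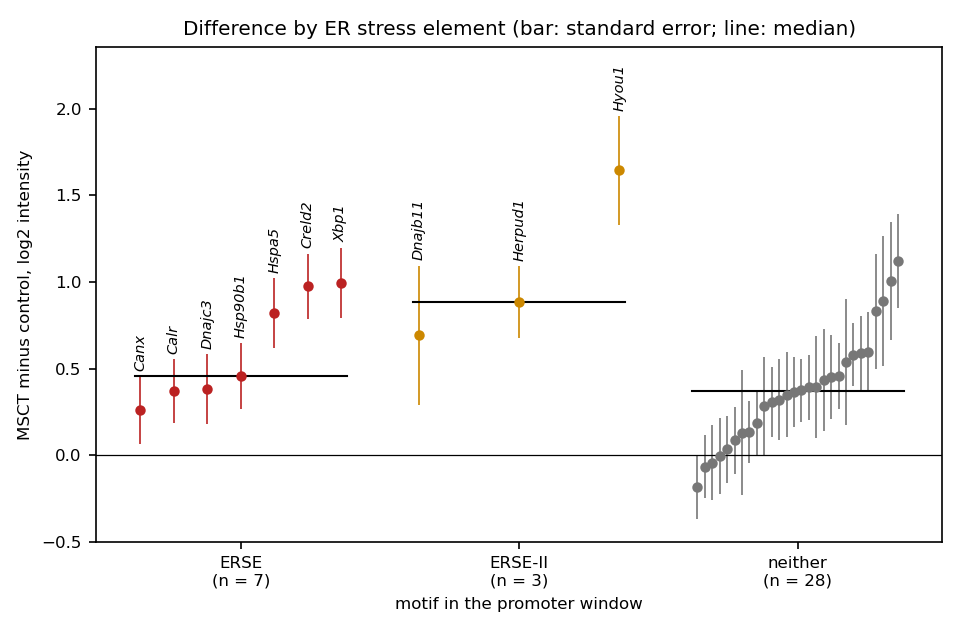
Difference between the groups (vertical axis, MSCT minus control, log2 intensity, with limma standard errors) of the 38 measured ER genes with a promoter window. They are grouped by the ER stress element in their first window, and horizontal lines are medians. The 7 members with ERSE run from 0.26 (Canx) to 1.00 (Xbp1), the 3 with ERSE-II from 0.69 to 1.64, and the 28 with neither from -0.19 to 1.12.

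Other genes of the pathway, from 5 further lists, were shifted less. Of 68 measured, 53 were higher (median 0.25), and 6 had an unadjusted p under 0.05, all higher and 8.82% of the 68. Of the other ER folding enzymes 10 of 15 were higher (median 0.23) and 3 had an unadjusted p under 0.05. One of these passed the screen, Pdia5, a disulfide isomerase, at 10.99 and 11.44 in control rats and 12.35 and 12.11 in MSCT rats (difference 1.02, standard error 0.25; limma adjusted p = 0.320). Genes of transport between ER and Golgi were higher in 15 of 16 (median 0.34) and 2 had an unadjusted p under 0.05. Of the other genes of degradation 7 of 10 were higher (median 0.17), and of those of translocation and glycosylation 8 of 8 (median 0.11), none with an unadjusted p under 0.05. Of the other stress response genes 13 of 19 were higher (median 0.20), and 1 had an unadjusted p under 0.05. This was Nupr1, a stress-induced chromatin protein, at 9.94 and 10.23 in control rats and 11.98 and 12.15 in MSCT rats (difference 1.98, standard error 0.21; limma adjusted p = 0.257). The count of these 68 genes with an unadjusted p under 0.05 also depended on the array left out.

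Of 14 goblet cell markers 6 were measured, all higher on both MSCT arrays, and 5 passed the screen (Gcnt3, Zg16, Foxa3, Retnlb and Tff3). The largest differences were 3.57 (standard error 0.21) for Gcnt3, a mucin glycosyltransferase, and 2.65 (standard error 0.26) for Zg16, a lectin of the mucus. The summed intensity of the 6 was 15288 and 17502 in control rats and 44540 and 40789 in MSCT rats. The brightest of the 6 was Creb3l1, at 13.39 and 13.53 in control rats (difference 0.49, standard error 0.21), so the control sums rest largely on it. Creb3l1 is also on the list of other stress response genes. Of 18 plasma cell markers only Sdc1 and Cd38 were measured, both higher on both MSCT arrays (0.22 and 0.67, standard errors 0.20 and 0.33) and neither with an unadjusted p under 0.05. Their summed intensity was 2940 and 3809 in control rats and 4042 and 4431 in MSCT rats. Of the 10 measured epithelial markers 6 were higher and 4 lower, and 1 had an unadjusted p under 0.05, Elf3, an epithelial transcription factor, which was lower (-0.72, standard error 0.19). Epithelial markers (10 of 12 measured, summed intensity 184912 and 188864 against 197056 and 188078) and smooth muscle markers (5 of 10 measured, 171486 and 141287 against 159204 and 154976) had medians of 0.09 and 0.02, and overlapping sums. Muc2, the main colonic mucin, and the immunoglobulin genes had no row by name. The paper lists the immunoglobulin joining chain and immunoglobulin heavy chain genes among the most increased of its chip comparison. The plasma cell markers measured here are therefore a partial view. Of 12 markers of exocrine pancreas, a tissue rich in ER, 4 were measured (summed intensity 2094 and 1899 against 3600 and 5908), 2 of them were higher, and Cela1, an elastase, passed the screen (1.46, standard error 0.39). The part of these cell types in the differences of the ER genes was not tested.

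Over all rows the arrays were alike. The median intensity was between 848 and 893, and the array medians differed by at most 0.07 on the log2 scale. The measured members were mostly intense rows, 28 of 46 (60.9%) in the brightest 25% and 42 in the brightest 50%, where replicates lie closer. The median SD between replicates over the members was 0.15 for control and 0.08 for MSCT, and over all rows 0.22 and 0.17. The number of arrays limits precision.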

How the data were processed

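From GenePix scans extracted with NimbleScan the authors deposited 1 linear intensity per RefSeq transcript and array. The submitters' processing notes name RMA without its role. Background correction, the combination of probes and the rule for blank rows are not given in the sources used here. Of 26420 rows, 8070 were blank on all 4 arrays. The log2 of the deposited intensities was used as it stood, without a pseudocount, filter or scaling. Gene names came from RefSeq (GRCr8) (7068 of 18350 measured rows), used for names only. limma 3.58.1 in R 4.3.3 (lmFit, eBayes, default settings) compared MSCT with control over all 18350 rows, with Benjamini-Hochberg adjustment. The test was checked on simulated data. The members and lists were chosen with earlier results of these data known. Named with full values are members past the screen, other members with an unadjusted p under 0.05, the member with the largest difference of each role and the branch factors. Other members are given by difference or range, and Trib3, Ppib, Ssr1, Dnajb9, Dnajb11, Pdia4, Sec61a1, Rpn1, Ddost, Lman1 and Elf3 were picked out after their values were seen. Alternatives were other normalizations, filters, tests and fold limits, the replicate block and leaving out each array. Motifs and figures were made in Python 3.11.15 (pandas 2.3.3, matplotlib 3.10.9).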

Additional observations from a re-analysis of the deposited data

How the results depend on the processing

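Leaving out each array in turn moved the count of ER genes past the screen from 4 to between 3 and 7, the count with an unadjusted p under 0.05 from 11 to between 6 and 17, the count of members higher in the MSCT group from 42 to between 39 and 44, and the median difference from 0.39 to between 0.35 and 0.48. In these fits the lone array of a group is assumed to vary like the other group. The count past the screen was 4 in the main fit, 2 without the lower 50% of rows and by the plain t-test, and 10 with a fold limit of 1.5. Upward the screen was passed by 2.12% of all rows in the main fit and 1.04% by the t-test. Without the lower 50% it was passed by 1.56% of the rows kept. In the main fit 11 members had an unadjusted p under 0.05. This count was 17 and 19 of the members kept without the lower 25% and 50% of rows (45 and 42 kept). It was 23 with the trend and robust options of eBayes. For the other pathway genes it was 12 under each filter and 17 with these options, against 6. The share of all rows tested that passed upward rose too, from 4.80% to 9.19% without the lower 50% and 6.89% with these options. Shares are not given for the 25% filter, the fold limit of 1.5, the replicate block or the other normalizations. Counts from those settings are not read as a trait of the members. Arrays share replicate numbers by label only. Deviations of same-numbered arrays from their group means correlated at r = 0.234 over all rows, and with the replicate number as a block 4 members passed the screen, 13 had an unadjusted p under 0.05, 42 were higher and the median stayed at 0.39. Quantile normalization, equal array medians and linear group means moved no count of members by more than 1.5 times. Atf4 changed sign, to 0.034 with equal array medians and to between -0.19 and 0.18 with an array left out. With an array left out 7 members changed sign, Atf4, Erp29 (-0.33 to 0.59), Ero1a (-0.010 to 0.32), Erp44 (-0.0017 to 0.57), Sel1l (-0.013 to 0.19), Sec11a (-0.067 to 0.13) and Kdelr1 (-0.19 to 0.10), all with groups that overlapped. Each measured member has a single row, so another choice of row gave no other value. The cause of these changes was not tested.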
